A study of Mus musculus with 8 samples.

Results

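The parvins are a small family of actin-binding proteins that sit at integrin adhesions. Integrins are the transmembrane receptors that hold a cell to its matrix or to other cells, and they have no actin-binding activity of their own. Talin and the kindlins bind the integrin beta tail and switch the receptor to its active form. Integrin-linked kinase, a pseudokinase, then holds a PINCH adapter on one side and a parvin on the other, forming the complex through which beta integrins are tied to filamentous actin. Vinculin, paxillin and zyxin join as the adhesion grows. Mast cells, the granulated tissue cells that carry the high-affinity IgE receptor, use integrins to lodge in tissue and to attach to fibronectin. The genes described here are 10 members of this machinery, namely Parva, Parvb, Parvg, Ilk, Lims1, Fermt3, Tln1, Vcl, Pxn and Zyx, out of 56748 Ensembl gene identifiers in the count tables. All 10 were found, and 9 passed the filter on low counts and were tested among 14942 genes. The list was drawn up with earlier results of these data known, and Parvb was chosen by its difference in this very comparison, so its values are given as a description with no test.

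The RNA came from resting bone marrow-derived mast cells (BMMCs), differentiated in culture from the marrow of 4 mice. One group, Mettl3-RNP, received Cas9 ribonucleoproteins directed at Mettl3, the catalytic subunit of the complex that places N6-methyladenosine (m6A) on mRNA, and carried the genotype label Mettl3 KO. The other group, Pulsed, was mock transfected, so the control cells had not received Cas9. Each group had 4 libraries numbered 1 to 4, and the Mettl3-RNP cells were an edited population in which untargeted cells remained, not a clone.

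Total counts ran from 32643260 to 45324826 a library. Mettl3 itself stood at 12.3, 9.18, 4.88 and 9.21 counts per 1000000 of the scaled library (CPM) in Mettl3-RNP 1 to 4 and at 25.9, 24.5, 11.2 and 26.5 CPM in Pulsed 1 to 4. It was lower in the edited library of all 4 pairs, with a log2 fold change of -1.30 (SE 0.11, adjusted p = 0.00543, edgeR), although Mettl3-RNP 1 lay above Pulsed 3. Tox4, on the opposite strand, covers 34.1% of the merged exons of Mettl3, and the strand setting of the counting is not stated. All 12 mast cell markers of a fixed list were detected and tested. Kit stood at means of 4242 CPM in Mettl3-RNP and 4055 in Pulsed and Fcer1a at 2892 and 2602, while Mcpt4, a protease of connective tissue mast cells, was low at 3.23 and 2.91. Of the 12, 1 passed the test, the protease gene Cpa3, at 23272 ± 4921 CPM against 30425 ± 7703 (SD, n = 4). It was lower in 4 of 4 pairs, by a log2 fold change of -0.37 (adjusted p = 0.0328, edgeR), and 3.74% of all genes passed in either direction. Of the 12 markers 8 were fitted higher, with a median log2 fold change of 0.10 over the list, among them Mitf (0.30, adjusted p = 0.0709) and Il1rl1 (0.24, adjusted p = 0.117), each higher in 4 of 4 pairs. Markers of 4 other cell classes were low, the summed level of 7 neutrophil genes being at most 0.373 CPM, that of 7 macrophage genes at most 3.99 CPM, that of 7 fibroblast genes at most 5.35 CPM and that of 7 T and B cell genes at most 2.62 CPM in any library. Of the defining ones, S100a8, S100a9, Elane, Camp, Dcn, Cd8a and Ms4a1 had 0 counts in every library. The macrophage gene Adgre1 was lower in Mettl3-RNP (1.18 ± 0.37 against 2.53 ± 0.444 CPM, log2 fold change -1.13, adjusted p = 0.0435).

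Genes listed for basophils and for megakaryocytes were not low as sums. The 5 basophil genes summed to between 1795 and 2420 CPM in Mettl3-RNP and between 2244 and 3322 in Pulsed, nearly all of it Ifitm1 and Cd200r3, whereas Mcpt8 and Prss34 had means of at most 2.56 CPM. Il18rap (log2 fold change -0.79, adjusted p = 0.0324) and Ifitm1 (-0.60, adjusted p = 0.0471) were lower in Mettl3-RNP, whereas Cd200r3 was at 688 against 572 CPM, higher in 4 of 4 pairs, with a log2 value of 0.25 that did not pass (adjusted p = 0.151). The 7 megakaryocyte and platelet genes summed to between 2561 and 2675 CPM in Mettl3-RNP and between 2177 and 2301 in Pulsed, almost wholly from Itga2b and Gp1ba, and the other 5, Pf4 and Ppbp among them, were under 1 CPM in every library. Itga2b, an integrin alpha chain, and Gp1ba had log2 fold changes of 0.18 and 0.33 (adjusted p = 0.163 and 0.0912). The part of these marker differences in the values of the adhesion genes was not tested.

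Because Mettl3 acts on mRNA sequence, the places where the 2 parvin transcripts detected in every library carry the letters GGACT, a common form of the m6A consensus, are shown first. They were read on the sense strand of the canonical mature transcript, with 10 bases on each side, and the coordinates are those of the 5 letters in GRCm39. Parvb, on the plus strand, held 5 matches, 2 in the coding sequence and 3 in the 3′ UTR (capitals mark GGACT):
Parvb, exon 4, coding, chr15:84166971-84166975: aggtacttctGGACTggatcaacga
Parvb, exon 5, coding, chr15:84174724-84174728: gttggaatgtGGACTctatccatgg
Parvb, exon 13, 3′ UTR, chr15:84197646-84197650: ctggctccagGGACTccgccccatt
Parvb, exon 13, 3′ UTR, chr15:84198867-84198871: aaaatacccgGGACTggaaggttct
Parvb, exon 13, 3′ UTR, chr15:84199603-84199607: ctgcaggccaGGACTgggttcctcc
Parvg, its neighbour on the same strand, held 4, of which 1 was coding and 3 were in the 3′ UTR:
Parvg, exon 4, coding, chr15:84213143-84213147: catgtttgatGGACTtattctgcac
Parvg, exon 13, 3′ UTR, chr15:84226138-84226142: gatgaggccaGGACTatcacccaaa
Parvg, exon 13, 3′ UTR, chr15:84226432-84226436: aggggtgcagGGACTcaggggtgca
Parvg, exon 13, 3′ UTR, chr15:84226483-84226487: ttccggttctGGACTttgccctgct

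The letters were common. Of 12056 protein-coding genes tested, 93.8% held at least 1 match in the canonical transcript, with a median of 1.04 per kb. Parvb had 1.32 matches per kb and Parvg 1.51. Parva had 0.444 per kb and the other 7 members lay between 0.6 (Zyx) and 1.61 (Fermt3). A match is a stretch of letters and not a measured methylation site, and these libraries hold no methylation readout.

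The 3 parvin genes differed widely from each other in level. Levels between genes are given as CPM per kb of canonical transcript. Parvg, the parvin of blood cells, was the main parvin transcript, with 22.8, 38.1, 38.8 and 39.2 CPM per kb in Pulsed 1 to 4. Parvb, the beta parvin also called affixin, stood at 2.32, 3.22, 2.99 and 1.47 CPM per kb in the same libraries. Parva, the alpha parvin (actopaxin) of adherent cells, had 2, 0, 5 and 0 reads in Pulsed 1 to 4 and 2, 7, 0 and 0 reads in Mettl3-RNP 1 to 4, too few to be tested or for a fold to be given. The canonical transcripts encode proteins of 372 (Parva), 365 (Parvb) and 331 (Parvg) residues.

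Parvb was higher in the Mettl3-RNP library of every pair. It stood at 12.1, 37.2, 34.8 and 17.9 CPM in Mettl3-RNP 1 to 4, from 451, 1594, 1040 and 628 reads. In Pulsed 1 to 4 it stood at 8.80, 12.2, 11.3 and 5.59 CPM, from 313, 468, 456 and 204 reads. Mettl3-RNP 2, 3 and 4 lay above all controls, and Mettl3-RNP 1 lay just under Pulsed 2, so the groups met at their edges. Within pairs the log2 difference was 0.46, 1.6, 1.61 and 1.67 for numbers 1 to 4, which puts pair 1 well under the others. The means were 25.5 ± 12.4 CPM (SD, n = 4) in Mettl3-RNP and 9.49 ± 2.98 CPM in Pulsed, and the fitted log2 fold change was 1.35 (SE 0.20), or 2.55-fold. Of the spread of Parvb over the 8 libraries, as a sum of squares of log2 CPM, 58.1% lay between the groups and 33.6% between replicate numbers.

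Parvg did not share this difference. It stood at 54.9, 101, 106 and 86.8 CPM in Mettl3-RNP 1 to 4 and at 60.5, 101, 103 and 104 CPM in Pulsed 1 to 4. The replicates numbered 1 were low in both groups, and the group ranges overlapped nearly in full. It gave a log2 fold change of -0.09 (SE 0.076), with a 95% interval from -0.26 to 0.09 and an adjusted p of 0.548 (edgeR). Between replicate numbers lay 95.6% of its spread and between groups 1.57%.

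The makeup of the parvin pool therefore differed between the groups while its size was similar. By transcript length, Parvb made up 13.4%, 20.5%, 18.6% and 12.6% of the summed parvin level in Mettl3-RNP 1 to 4 and 9.24%, 7.79%, 7.14% and 3.62% in Pulsed 1 to 4. The lowest edited library was thus above the highest control, a description that rests on the same Parvb values. Summed parvin level was 39.6 ± 11.8 CPM per kb in Mettl3-RNP and 37.2 ± 8.1 in Pulsed (SD, n = 4), and Parvg remained the larger part in all 8 libraries. On the length of merged exons in place of the canonical transcript, the mean share of Parvb was 21.2% and 9.38%.

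**Figure D1:**
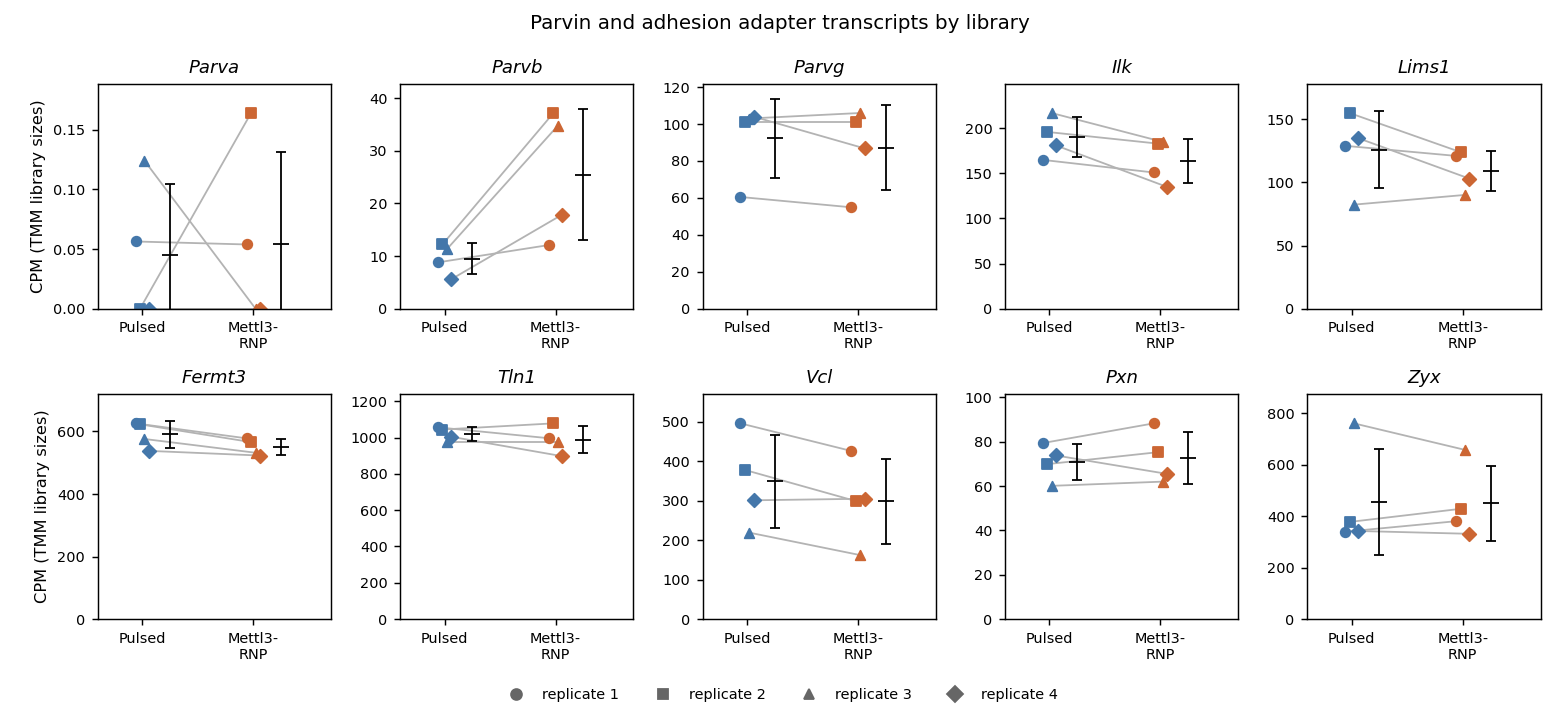
Level of each of the 10 genes in CPM (vertical axes start at 0 and differ by gene) in Pulsed (blue) and Mettl3-RNP (orange), with lines joining libraries of the same replicate number and black bars giving the mean ± SD of 4 libraries. All 4 lines rise for Parvb, those of Ilk and Fermt3 slope down slightly, and those of the other genes go both ways.

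The core partners of the parvins gave small differences. Ilk, the integrin-linked kinase that holds the complex together, stood at 151, 183, 185 and 135 CPM in Mettl3-RNP 1 to 4 and 165, 196, 217 and 181 CPM in Pulsed 1 to 4. It was lower in the edited library of all 4 pairs, by a log2 fold change of -0.22 (SE 0.077), which did not pass the adjustment (adjusted p = 0.144, edgeR). Reads of Ilk may be shared with Rrp8 and Taf10 on the opposite strand, since the strand setting of the counting is not stated. The overlaps of these genes, each counted separately, sum to 90.3% of the merged exon length of Ilk. Lims1, the PINCH adapter on the other face of the kinase, stood at 121, 124, 90.1 and 103 CPM against 129, 155, 82.4 and 135 CPM. It was lower in 3 of 4 pairs, with a log2 fold change of -0.17 (SE 0.096, adjusted p = 0.34).

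The activators of the integrin beta tail were the most even genes of the set. Fermt3, kindlin-3, the kindlin of blood cells, stood at 578, 566, 532 and 523 CPM in Mettl3-RNP 1 to 4 and 626, 623, 576 and 538 CPM in Pulsed 1 to 4. Its log2 fold change was -0.10 (SE 0.065, adjusted p = 0.403), with all 4 pairs lower. Tln1, talin-1, had the highest read count of the 10, at 996, 1078, 977 and 897 CPM against 1056, 1044, 977 and 1004 CPM. Its pairs went both ways, and the log2 fold change was -0.05 (SE 0.070, adjusted p = 0.728). Over all 8 libraries the log2 CPM of each of these activators spanned only 0.26.

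The actin-side adapters varied more over the 8 libraries, mostly between replicate numbers. Vcl, vinculin, which binds talin and actin under load, stood at 426, 299, 162 and 305 CPM in Mettl3-RNP 1 to 4 and 496, 378, 219 and 301 CPM in Pulsed 1 to 4. It was lower in 3 of 4 pairs, with a log2 fold change of -0.24 (SE 0.087, 95% interval -0.45 to -0.043) that did not pass the adjustment (adjusted p = 0.148, edgeR). Between groups lay 6.31% of its spread. Zyx, zyxin, which recruits actin assembly factors, stood at 380, 428, 657 and 331 CPM against 339, 377, 760 and 342 CPM. Its log2 fold change of 0.02 (SE 0.086, adjusted p = 0.912) turned below 0 without replicate 1 or 2 and without the replicate block. Pxn, the scaffold paxillin, stood at 88.3, 75.3, 62.0 and 65.5 CPM against 79.4, 69.9, 60.1 and 73.8 CPM, a log2 fold change of 0.03 (SE 0.076, adjusted p = 0.842) that turned below 0 without replicate 1.

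Of the 9 tested members, 1 lay under the adjusted p threshold of 0.05, namely Parvb, which follows from how it was chosen and is not a test of it. Over all 14942 genes 2.35% were higher, 1.39% were lower and 3.74% passed in either direction. None of the other 8 tested members passed in edgeR or in DESeq2, and 2 of them, Ilk and Vcl, had an unadjusted p under 0.05, as did 3357 of the 14942 genes. Their median log2 fold change was -0.10, with 6 fitted lower and 2 higher, beside a median of -0.001 over all genes tested. The 95% intervals of these 8 reached from -0.45 (Vcl) to 0.22 (Zyx). RNA from whole cultures cannot tell more RNA per cell from more cells that carry it.

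**Figure D2:**
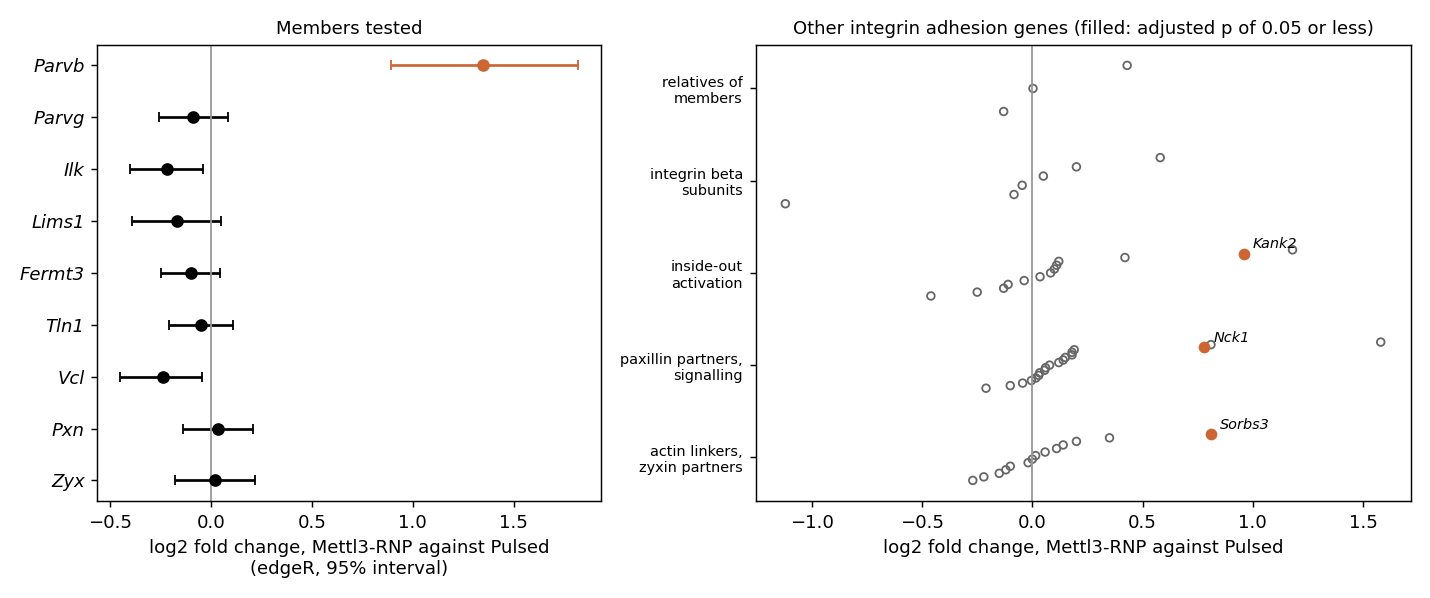
Left, log2 fold change of Mettl3-RNP against Pulsed with its 95% interval for the 9 tested members, Parvb in orange. Right, the same quantity for 55 tested genes of integrin adhesion in 5 lists, where filled points mark the 3 genes with an adjusted p of 0.05 or less (Kank2, Nck1 and Sorbs3) and open points the rest.

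Per kb of transcript, the members formed a steep order in Pulsed. Zyx (136 ± 61.4 CPM per kb, SD, n = 4), Fermt3 (136 ± 9.73), Tln1 (121 ± 4.34) and Ilk (102 ± 11.9) were at the top, with overlapping ranges between neighbours, and their order changed when merged exon length was used. The first place of Zyx rests on Pulsed 3, at 228 CPM per kb, the 1 Pulsed library in which it was above Fermt3. In Pulsed 1, 2 and 4 it stood at 102, 113 and 102. Vcl followed at 63.5 ± 21.5, then Parvg at 34.7 ± 7.98, Lims1 at 27.6 ± 6.77 and Pxn at 15.5 ± 1.77. Parvb came ninth at 2.5 ± 0.784, and Parva was last at 0.01 ± 0.0131. The ranges of Vcl and Parvg, of Lims1 and Pxn, of Pxn and Parvb, and of Parvb and Parva did not overlap, whereas those of Ilk and Vcl and of Parvg and Lims1 did. In Mettl3-RNP the order of the means was the same, with Parvb at 6.72 ± 3.26 and still ninth under Pxn at 15.9 ± 2.57.

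**Figure D3:**
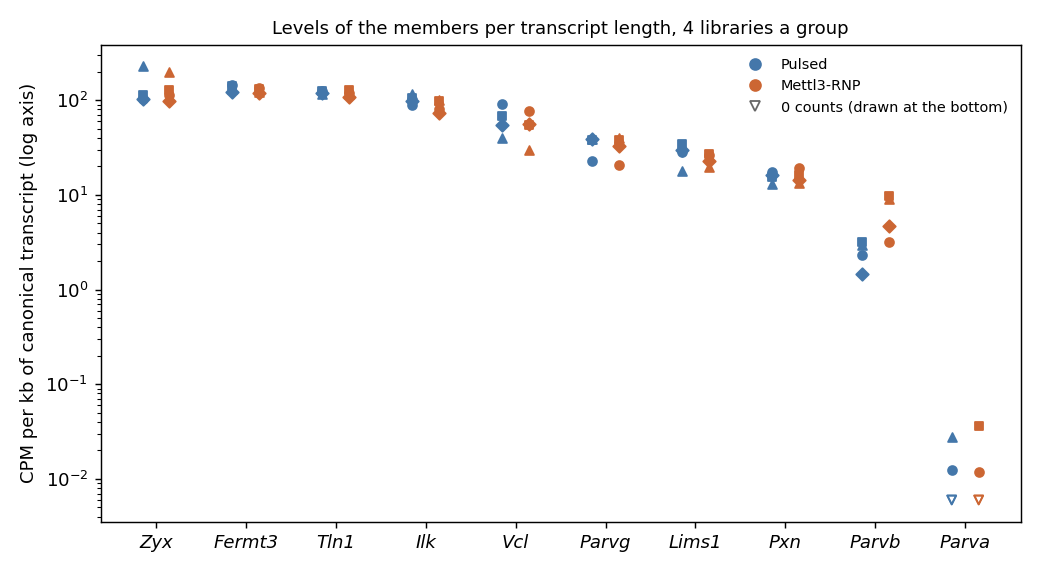
CPM per kb of canonical transcript (log axis) of the 10 genes in the 4 Pulsed (blue) and 4 Mettl3-RNP (orange) libraries, ordered by the Pulsed mean, with open triangles at the bottom for libraries with 0 counts. The Parvb points lie between 1.47 and 9.81, under those of Pxn and far above those of Parva.

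Libraries with the replicate number 3 stood apart for several members, in both groups alike. Zyx in replicate 3 was above the mean of the other replicates by 0.80 in Mettl3-RNP and 1.11 in Pulsed on the log2 scale. Vcl in replicate 3 was lower, by -1.07 and -0.81, and Lims1 by -0.36 and -0.76. Between replicate numbers lay 96.4% of the spread of Zyx, 90.7% of that of Vcl and 86.4% of that of Pxn. In the same libraries all 11 immediate early genes of a fixed list, transcripts that mark recent stimulation, were higher in both groups, with a median log2 difference of 4.20 in Mettl3-RNP and 4.76 in Pulsed. Egr1, an early transcription factor gene, stood at 1000, 2393, 10694 and 120 CPM in Mettl3-RNP 1 to 4 and at 960, 1286, 8655 and 26.3 CPM in Pulsed 1 to 4. Replicate 3 was the highest in both groups, and the very low replicate 4 widens its difference from the mean of the others. The part of this state in the levels of Zyx, Vcl and Lims1 was not tested. Parvb in replicate 3 differed from the other replicates by 0.79 and 0.42, and its fitted log2 fold change without replicate 3 was 1.26.

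**Figure D4:**
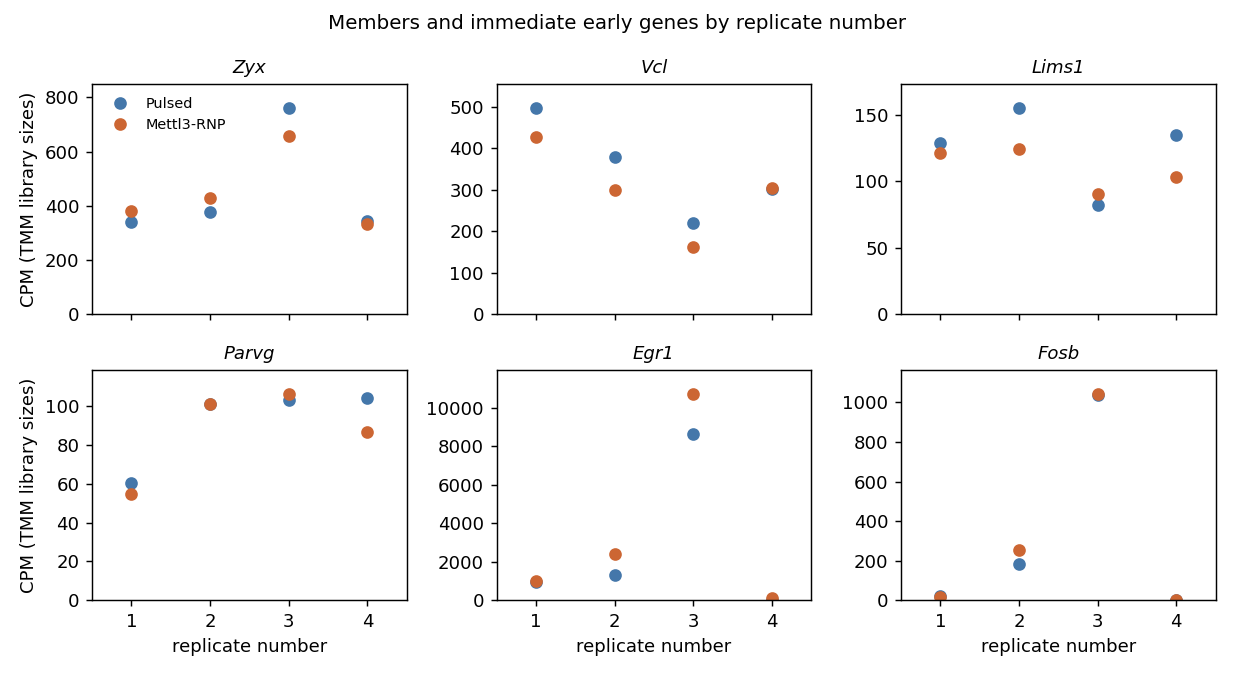
CPM of Zyx, Vcl, Lims1 and Parvg and of the immediate early genes Egr1 and Fosb (vertical axes start at 0 and differ by gene) by replicate number, Pulsed in blue and Mettl3-RNP in orange. In replicate 3 Zyx, Egr1 and Fosb are highest and Vcl and Lims1 lowest in both groups, and Parvg is lowest in replicate 1.

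Parvb lies at 84116232 to 84199889 on the plus strand of chromosome 15 (GRCm39), and Parvg begins 8337 bases past its end, at 84208227. Of 8 other protein-coding genes whose nearest end is within 300 kb of Parvb, 3 had a mean of at least 1 CPM. Samm50, a gene for mitochondrial outer membrane protein assembly that ends 14754 bases before Parvb, had a log2 fold change of -0.17 (SE 0.075, adjusted p = 0.237). Parvg had the value given above. Rtl6, a retrotransposon-derived gene farther downstream, stood at 11.1, 12.6, 11.9 and 18.8 CPM in Mettl3-RNP 1 to 4 and at 9.87, 7.73, 10.8 and 11 CPM in Pulsed 1 to 4. Its groups did not overlap, though the share of all genes for which this holds is not given here. It gave a log2 fold change of 0.45 (SE 0.14), whose adjusted p was 0.112 by edgeR and 0.0498 by DESeq2. The remaining 5 had means of at most 0.431 CPM. Samm50 and Parvg, the nearest expressed genes on either side, thus gave fitted values just below 0, and the more distant Rtl6 one above 0. No counted gene overlaps the exons of Parvb, Parvg, Parva, Lims1 or Pxn. Opposite-strand genes cover 20.4% of the merged exons of Fermt3, 24.6% of those of Vcl and 4.29% of those of Tln1. For Zyx the overlaps of Fam131b and Epha1, each counted separately, sum to 15.7%.

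**Figure D5:**
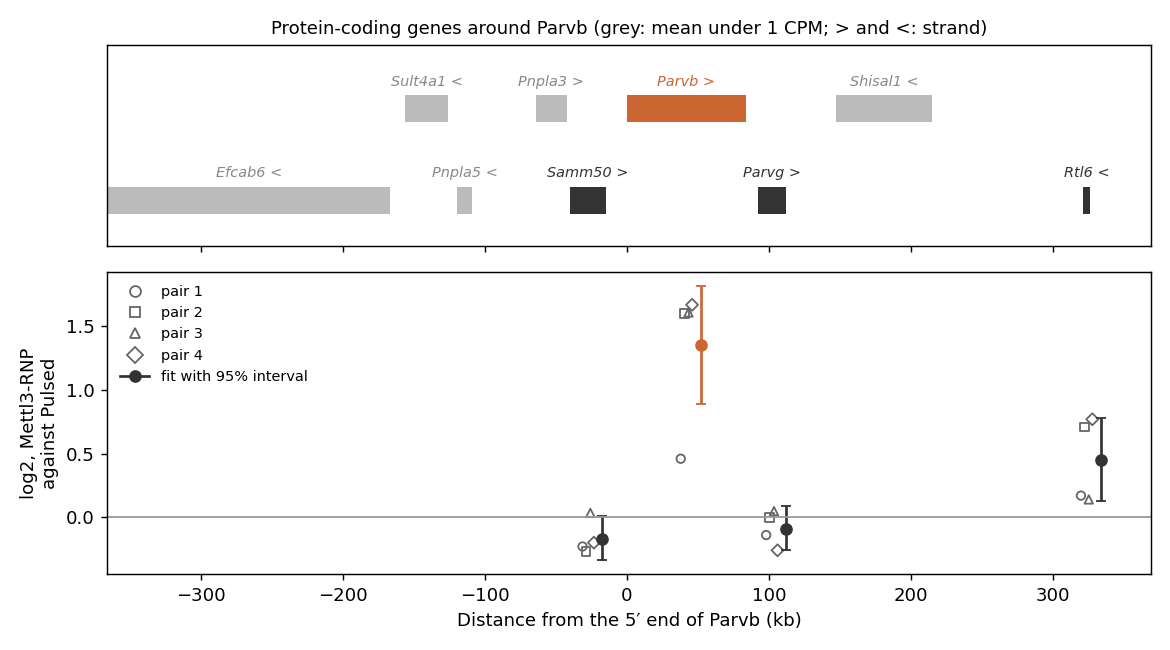
Top, protein-coding genes around Parvb by distance from its 5′ end in kb, those with a mean under 1 CPM in grey. Bottom, the log2 difference of Mettl3-RNP against Pulsed in each of the 4 pairs (open symbols) and the fitted value with its 95% interval for the 4 genes that reached a mean of 1 CPM, where Parvb stands at 1.35, Samm50 and Parvg just below 0 and Rtl6 at 0.45.

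The nearest relatives of the members did not pass the test. Rsu1, which binds the PINCH adapter of the kinase complex, stood at means of 308 ± 13.4 CPM in Mettl3-RNP and 341 ± 56.3 in Pulsed (SD, n = 4), a log2 fold change of -0.13 (SE 0.091, adjusted p = 0.446). Fermt2, kindlin-2, stood at 51.3 ± 13.2 and 52.7 ± 21.3 CPM, with a fitted log2 value of 0.003 (SE 0.085, adjusted p = 0.988). Tln2, the second talin, was close to the detection limit at 1.13 ± 0.904 and 0.854 ± 0.762 CPM. Lims2 and Fermt1, the other PINCH and the epithelial kindlin, were under 1 CPM in every library and were not tested.

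Integrin beta subunits, the receptor chains these adapters bind, were led by Itgb7 (548 ± 107 CPM in Mettl3-RNP, 563 ± 88.1 in Pulsed) and Itgb1 (206 ± 41.4 and 198 ± 32.4). Both gave fitted log2 values at most 0.05 from 0, with adjusted p of 0.8 and 0.713. Itgb2, the beta chain of leukocyte integrins, had a log2 fold change of -0.08 (SE 0.17, adjusted p = 0.826). Itgb3, the beta chain of the vitronectin receptor, was the widest. It stood at 9.04, 24.4, 2.07 and 15.2 CPM in Mettl3-RNP 1 to 4 and 39, 41.5, 12.8 and 8.79 CPM in Pulsed 1 to 4. It was lower in 3 of 4 pairs and higher in pair 4, and its log2 fold change of -1.12 (SE 0.49) had an adjusted p of 0.225. Leaving out 1 replicate number at a time gave -0.79 without replicate 1, -1.30 without 2, -0.73 without 3 and -1.74 without 4, with adjusted p of 0.431, 0.365, 0.399 and 0.00253. It also passed when every gene with at least 1 count was tested (adjusted p = 7.69e-11, edgeR), at the same log2 fold change of -1.12. Its SE in that fit was 0.152, so the small p reflects a narrower SE and not a larger difference. The SEs of Tln1 and Zyx were 0.119 and 0.12 there, above those of the main fit. Itgb6 was higher in 4 of 4 pairs at 2.48 ± 1.59 against 1.71 ± 1.38 CPM, a log2 fold change of 0.58 (SE 0.24, adjusted p = 0.207).

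Across 5 lists of integrin adhesion genes that are not members, 55 of 63 genes were tested, 3 were higher and 0 were lower, with 14 at an unadjusted p under 0.05 and a median log2 fold change of 0.06. DESeq2 called 5 of the 55, of which 1, Skap1, was lower, beside 1449 of all 14942 genes, a like share. The shares, 3 of 55 higher beside 2.35% of all genes, and 0 of 55 lower beside 1.39%, are too small in number to be read as a property of the lists. Among 13 tested genes of inside-out integrin activation 1 passed, among 19 paxillin partners and signalling genes 1, among 14 actin linkers and zyxin partners 1, and among 3 relatives and 6 beta subunits 0.

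The 3 that rose came from 3 different lists. Kank2, a talin-binding protein that lowers the force on the integrin bond, stood at 17.8, 14.6, 9.80 and 17.7 CPM in Mettl3-RNP 1 to 4 and 9.56, 6.24, 7.56 and 7.01 CPM in Pulsed 1 to 4. All edited libraries lay above all controls, again without a share over all genes to set it against. The log2 fold change was 0.96 (SE 0.16, adjusted p = 0.0272, edgeR). Nck1, an SH2 and SH3 domain adapter that links phosphotyrosine to actin assembly, stood at 44.6, 54.9, 31.6 and 66.8 CPM against 31.3, 30.5, 18.3 and 33.9 CPM. It was higher in 4 of 4 pairs with overlapping groups, since both replicates numbered 3 were low, and its log2 fold change was 0.78 (SE 0.090, adjusted p = 0.0111). Its paralog Nck2 had a log2 fold change of 0.12 (SE 0.075, adjusted p = 0.403), a value looked up after that of Nck1 was seen. Sorbs3, vinexin, which binds vinculin, stood at 5.6, 12.1, 10 and 9.83 CPM against 3.26, 5.56, 8.08 and 4.79 CPM, higher in 4 of 4 pairs, with a log2 fold change of 0.81 (SE 0.16, adjusted p = 0.0356). These calls depend on replicate 2 and on the pairing. Without replicate 2 the log2 fold changes were 0.87 for Kank2, 0.75 for Nck1 and 0.70 for Sorbs3, with adjusted p of 0.121, 0.0648 and 0.167. Without the replicate block they were 0.98, 0.80 and 0.79, with adjusted p of 0.725, 0.999 and 0.999, so the fitted sizes moved little. Sorbs3 also missed the threshold without replicate 1, at an adjusted p of 0.0675.

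The genes whose log2 CPM followed that of Parvb most closely over the 8 libraries, among 10737 other protein-coding genes that averaged 1 CPM or more, were Tpst2 (Pearson r = 0.989), Imp3 (0.964), Plxnd1 (0.963), Ppp4r1 (0.96) and Qsox1 (0.955). The libraries share their scaling and fall into the same 2 groups and 4 numbers, so such values describe likeness in this set alone. Tpst2, a tyrosylprotein sulfotransferase, stood at 30.3, 53.7, 49.4 and 37.3 CPM in Mettl3-RNP 1 to 4 and 25.4, 26.1, 27.2 and 18.4 CPM in Pulsed 1 to 4. As with Parvb, replicates 2 and 3 were the highest edited libraries and Pulsed 4 the lowest control. Plxnd1, a semaphorin receptor, stood at 37.2, 65.2, 66.8 and 48.6 CPM against 28, 31.4, 37.9 and 27.6 CPM. None of the other tested members was close to this pattern, with r from -0.498 (Vcl) to 0.379 (Zyx) and 0.283 for Parvg.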

How the data were processed

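RNA from 4 Mettl3-RNP and 4 Pulsed BMMC cultures was sequenced as paired-end poly(A) libraries. The authors checked reads with FastQC 0.11.9, aligned them with HISAT2 2.2.1 to GRCm39 and counted them per gene with featureCounts 2.0.1. They deposited whole-number raw counts, 1 table a library. The study describes a batch correction, which these counts do not show. Identifiers were named with GENCODE M39 (98.7% matched), the source also of exons, lengths and sequence.

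Genes were kept by filterByExpr (minimum count 10) and scaled by TMM, and edgeR 4.0.16 in R 4.3.3 tested Mettl3-RNP against Pulsed by quasi-likelihood, blocking on replicate number, with Benjamini-Hochberg adjustment over 14942 genes. The fit was run on counts simulated from its own fitted model, which tests neither the pairing nor the estimates of spread. CPM uses TMM library sizes. The series text gives 4 mice as the source of both groups, and same-numbered libraries deviated together (correlations 0.489 to 0.879, against at most 0.183 for other numbers), so the numbers were taken to pair them. The labels do not state which mouse each number stands for.

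The members and gene lists were chosen with earlier results of these data known. Named were all members, Mettl3, genes within 300 kb of Parvb, list genes past an adjusted p of 0.05, relatives of members and beta subunits averaging 1 CPM or more, the 5 genes most like Parvb and markers where a range needed them. Alternatives were no block, other scalings and filters, leaving out each replicate number, and DESeq2 1.42.0.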

Additional observations from a re-analysis of the deposited data

Results flagged for a closer look

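In each group of 4 libraries the highest or lowest value was set against the range of the group, for 40 groups, of which chance would mark about 2. Marked were 3. Parvg stood at 60.5 CPM in Pulsed 1, far under the other Pulsed libraries. Zyx stood at 760 CPM in Pulsed 3, far above the others. Mettl3 stood at 11.2 CPM in Pulsed 3, the lowest control value of the targeted gene. The last 2 are libraries of replicate 3, in which the immediate early genes were also high.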

How the results depend on the processing

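The pairing carries most calls. Without the replicate block 0 members, 0 of the 55 pathway genes and 0 of all genes passed, against 1 (Parvb, no test given how it was chosen), 3 and 559 with it, and that fit turned Zyx to -0.018 and Fermt2 to -0.038 on the log2 scale. Over the fits that left out one replicate number, the counts ran from 0 to 1 for members, from 0 to 4 for pathway genes and from 26 to 383 for all genes, the lowest being without replicate 2 in each case. The number for all genes rose to 993 when every gene with at least 1 count was tested, to 959 with at least 10 counts in every library and to 1449 with DESeq2, and that of the pathway genes to 6 with every counted gene and to 5 with DESeq2. With every counted gene the SE of Itgb3 went from 0.485 to 0.152 and that of Parvb from 0.201 to 0.146. That of Tln1 went up, from 0.0697 to 0.119. The cause of the changes in number was not tested. Of 280 values (28 named genes under 10 alternatives), 238 kept direction and side of the threshold, 26 lost it, 4 gained it and 12 turned. Beside the 2 above, those that turned came from leaving out a replicate number, with ranges of -0.043 to 0.11 for Pxn, -0.061 to 0.10 for Zyx, -0.066 to 0.092 for Fermt2, -0.35 to 1.18 for Tln2, -0.31 to 0.058 for Itgb2 and -0.12 to 0.011 for Itgb7. The log2 fold change of Parvb ran from 1.25 to 1.6 over all alternatives. The intervals of the other 8 tested members extended from 0.149 (Fermt3) to 0.223 (Lims1) to either side, and the part of depth in their width was not tested.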
